A study of Homo sapiens with 9 samples.

Results

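The transcripts of 9 genes of the insulin-like growth factor (IGF) system were followed in A498, a cell line established from a human kidney tumour of the clear cell type (clear cell renal cell carcinoma, ccRCC). They were the binding proteins IGFBP1 to IGFBP7 and the receptors IGF1R and IGF2R, out of 27673 genes in the count table. The genes were chosen by name as a family, and the family was picked because IGFBP3 had the largest fall after depletion of ARNT. Values of shARNT against shControl are therefore given as a description with no test. Of the 9 genes, 6 passed the filter on low counts, and IGFBP1, IGFBP2 and IGFBP4 did not.

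All cells were infected with lentivirus that carried a short hairpin RNA (shRNA) and were kept under puromycin, at 2.5 µg/mL for 1 week and at 1.25 µg/mL afterwards. The hairpin was a control (shControl), or it targeted BMAL1 (shBMAL1) or ARNT (shARNT), with 3 biological replicates in each group and 9 libraries in all. No second hairpin per gene was labelled, so loss of the target and other effects of the hairpin cannot be told apart. The comparisons address how far transcripts that depend on HIF2α need one or the other of these proteins. HIF2α usually dimerises with ARNT, whereas BMAL1 is best known for its dimer with CLOCK, which drives circadian rhythms.

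IGF1 and IGF2 are secreted growth factors that signal through the receptor tyrosine kinase IGF1R. IGFBP1 to IGFBP6 hold these ligands with high affinity outside the cell and control how much of them reaches the receptor, while IGFBP7 binds them weakly. IGF2R, which is also the large mannose 6-phosphate receptor, takes IGF2 up for degradation in lysosomes and does not signal as IGF1R does. IGFBP1 and IGFBP3 are known as hypoxia-inducible genes, and ccRCC cells that lack VHL keep HIF2α active in normal oxygen.

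Library totals were 35269851 to 36099075 counts. Levels are given as CPM, counts scaled to a common library size after correction by trimmed means of M values (TMM). The targeted transcripts were lower in the libraries labelled for them, ARNT by -2.41 on the log2 scale (SE 0.0667) in shARNT and BMAL1 (listed as ARNTL) by -1.70 (SE 0.101) in shBMAL1, both against shControl. ARNT was also lower in shBMAL1, by -0.65 (SE 0.0599, adjusted p = 1.54e-08, edgeR), and ARNTL was higher in shARNT, by 0.55 (SE 0.0866), so loss of BMAL1 and the lower ARNT transcript cannot be told apart in any shBMAL1 value. In RNA from whole cultures, fewer cells of a kind and less RNA per cell cannot be told apart. The EPAS1 transcript, which encodes HIF2α, was itself lower, with log2 fold changes of -2.22 (SE 0.0559) in shARNT and -0.57 (SE 0.0528) in shBMAL1. The part of this in the results for the IGF genes was not tested. These are RNA values. In another ccRCC line, the study reports that neither depletion lowered HIF2α protein and that ARNT protein rose slightly after BMAL1 depletion. All 8 markers of renal epithelium or ccRCC had counts in every library, summing to 7998 to 8053 CPM in shControl and 2101 to 2257 CPM in shARNT. VIM carried most of that difference, with means of 5974 and 812 CPM, while PAX8 was higher in shARNT (36.0 and 100.3 CPM) and KRT18 had 566 and 563 CPM. Endothelial markers had at most 9 counts. The leukocyte markers PTPRC and CD3E had at most 12 counts, and CD68, a lysosomal protein, made up nearly all of the 1786 to 1905 CPM of that list in shControl and 136 to 148 CPM in shARNT. Of 3 fibroblast markers, PDGFRB alone passed 10 counts, with at most 82.

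Per kilobase of the longest annotated transcript, the scale used wherever genes are compared with each other, IGFBP3 was the most abundant of the 9 genes in shControl at 3111 ± 66.3 CPM per kilobase (SD, n = 3). IGFBP7 followed with 402 ± 9.66, IGFBP6 with 181 ± 8.17 and IGF2R with 31.5 ± 2.13 CPM per kilobase. IGFBP5 and IGF1R were far lower, with 1.14 ± 0.122 and 0.689 ± 0.0459 CPM per kilobase. In shControl no neighbours in this order overlapped between libraries, apart from IGFBP2 and IGFBP1 at the bottom. Thus the A498 cells expressed mainly 3 binding proteins, a large amount of IGF2R transcript relative to IGF1R, and nearly no IGFBP1, IGFBP2 or IGFBP4.

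**Figure D1:**
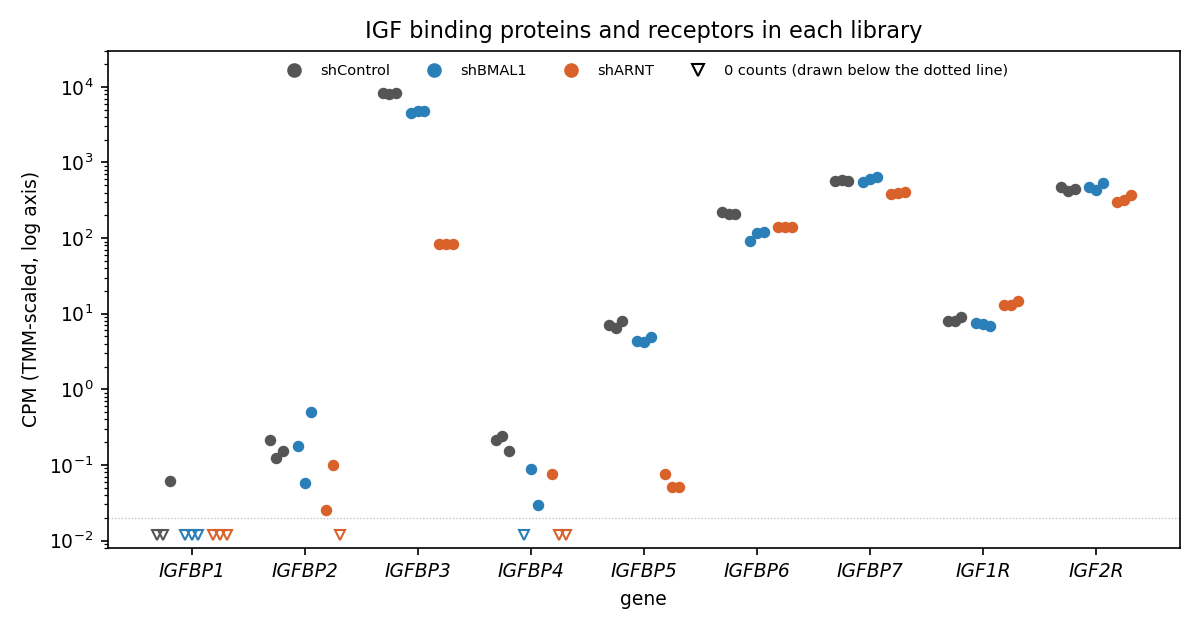
Each point is 1 library, with CPM on a log axis for the 9 genes and the 3 groups side by side; open triangles are libraries with 0 counts. IGFBP3 sits between 7989 and 8321 CPM in shControl and between 83.3 and 84.6 CPM in shARNT, IGFBP5 drops from 6.38 to 7.90 CPM to at most 0.0757 CPM, and IGF1R is the gene whose shARNT points lie above the others.

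IGFBP3 is the main carrier of IGFs in blood and lies on chromosome 7 from 45951844 to 45961473 on the minus strand (GRCh37, as for all positions). It had 274595, 263012 and 274870 counts in the shControl libraries. It had 156071, 165057 and 162997 counts in shBMAL1 and 3300, 3346 and 3352 in shARNT. The groups did not overlap, and the shARNT libraries were nearly identical to each other. IGFBP3 held 0.746% to 0.778% of all counts in shControl, where it ranked 6 or 7 among all genes, and ranked 2399 to 2423 in shARNT. The level was 8186 ± 174.5 CPM (SD, n = 3) in shControl, 4716 ± 131 CPM in shBMAL1 and 84.1 ± 0.706 CPM in shARNT, so 57.6% and 1.03% of the control level were left.

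The log2 fold change of IGFBP3 in shARNT against shControl was -6.60 (SE 0.0400). Ranked by fall, it came first among the 11228 genes that averaged 2 or more on the log2 CPM scale, and 24th among all 15551 genes tested. In shBMAL1, a comparison that shares the control libraries but was not used to choose the gene, IGFBP3 fell by 0.80 on the log2 scale (SE 0.0312, adjusted p = 3.32e-14). Every adjusted p comes from the quasi-likelihood F-test of edgeR, corrected over all genes tested by the method of Benjamini and Hochberg. Between the depletions it differed by -5.81 (SE 0.0387), which is given as a description because the shARNT libraries chose it.

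IGFBP5 is a matrix-bound binding protein and lies on chromosome 2 from 217536828 to 217560272. It had 237, 210 and 261 counts in shControl and 147, 144 and 166 in shBMAL1. In the shARNT libraries 3, 2 and 2 counts were left. The 3 groups did not overlap. IGFBP5 fell in shBMAL1 by 0.68 on the log2 scale (SE 0.137, adjusted p = 2.76e-04). Its fitted log2 fold change in shARNT against shControl was -6.84 (SE 0.260). The 7 counts of shARNT against 708 of shControl amount to 0.826% of the control level, with an exact binomial 95% interval of 0.331% to 1.71% that covers counting error only. The remaining share of IGFBP3 lies inside that interval, so the depth does not separate the proportional falls of the pair. IGFBP5 averaged 1.92 on the log2 CPM scale, just under the minimum that made IGFBP3 the largest fall. Directly against shBMAL1, IGFBP5 was lower in shARNT by -6.16 (SE 0.275), with 7 counts against 457. This is given with no test, because IGFBP5 passed the filter on low counts through the shControl and shBMAL1 libraries.

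The sequences before the transcript starts of IGFBP3 and IGFBP5 are shown because these transcripts were nearly lost together. HIF dimers bind a short core, ACGTG or GCGTG, within hypoxia response elements, and the palindrome CACGTG, which contains ACGTG on both strands, is the E-box bound by BMAL1 and CLOCK. Each run is the 250 bases before the RefSeq start, read 5′ to 3′ on the gene's strand, with ACGTG and GCGTG on either strand in capitals. RefSeq gives them for GRCh38.p14, and each matched GRCh37 exactly at 1 place, chr7:45960872-45961121 for IGFBP3 and chr2:217560273-217560522 for IGFBP5, both on the minus strand. The IGFBP3 window lies within the annotated span of IGFBP3, which reaches 45961473, and the lncRNA DIRC3-AS1 overlaps IGFBP5 on the opposite strand.
IGFBP3: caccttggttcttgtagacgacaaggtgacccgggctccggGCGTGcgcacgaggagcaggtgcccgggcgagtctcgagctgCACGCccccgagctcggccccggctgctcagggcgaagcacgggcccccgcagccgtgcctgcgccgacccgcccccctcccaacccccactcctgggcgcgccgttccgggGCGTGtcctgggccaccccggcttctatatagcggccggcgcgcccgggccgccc
IGFBP5: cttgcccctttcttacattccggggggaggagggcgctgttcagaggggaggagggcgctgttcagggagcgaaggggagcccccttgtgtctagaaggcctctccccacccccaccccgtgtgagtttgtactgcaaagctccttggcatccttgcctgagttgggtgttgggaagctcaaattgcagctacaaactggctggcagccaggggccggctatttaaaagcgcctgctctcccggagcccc
The IGFBP3 window held 3 GCGTG cores, beginning at positions -209, -167 and -55 from the start, of which the middle one is on the opposite strand. Of 35116 promoter windows of this length, 43.2% held at least 1 core of either kind and 7.76% held 3 or more. These windows were not matched for base composition, and the share of G and C was 76.0% for IGFBP3 and 61.2% for IGFBP5. The IGFBP5 window held no core. No binding was measured in these libraries, and the letters beyond this window were not searched.

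**Figure D2:**
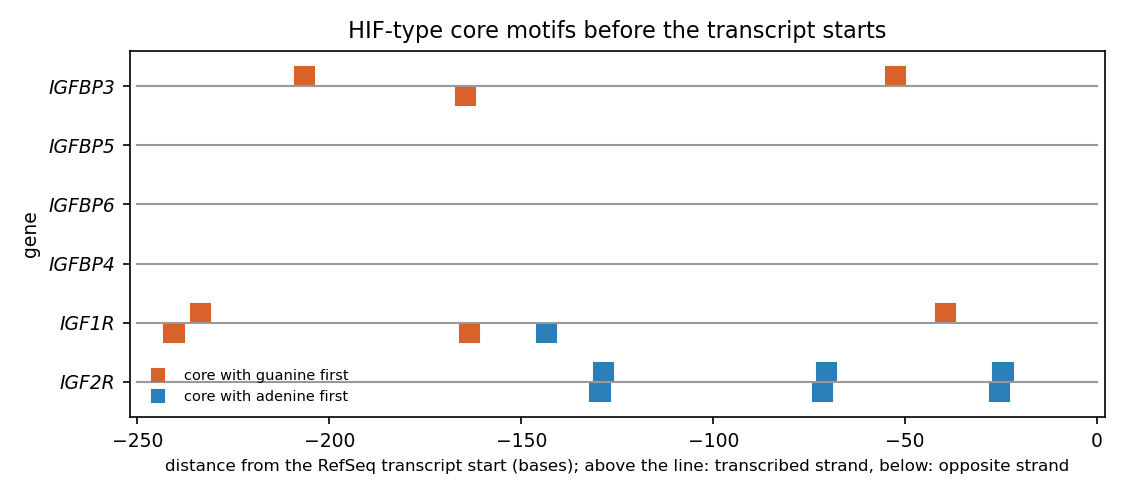
Matches to the HIF-type cores in the 250 bases before the RefSeq start of 6 genes, by distance from the start in bases; marks above a line are on the transcribed strand and marks below on the opposite strand. IGFBP3 has 3 cores, IGF1R has 5, IGF2R has 3 overlapping pairs, and IGFBP5, IGFBP6 and IGFBP4 have none in this window.

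IGFBP6, which prefers IGF2 over IGF1, lies on chromosome 12 from 53491220 to 53496129. It had 7443, 6896 and 6778 counts in shControl, 3080, 4048 and 4135 in shBMAL1, and 5526, 5550 and 5536 in shARNT. Both depletions lay below every control library, and here the lower group was shBMAL1, in which replicate 1 was the lowest. The level was 213 ± 9.62 CPM in shControl, 110 ± 17.1 CPM in shBMAL1 and 140 ± 0.480 CPM in shARNT (SD, n = 3). IGFBP6 fell in shBMAL1 by 0.96 on the log2 scale (SE 0.0729, adjusted p = 8.19e-10). Its log2 fold change in shARNT against shControl was -0.61 (SE 0.0719). The direct contrast put shARNT above shBMAL1 by 0.35 (SE 0.0729, adjusted p = 2.16e-04), and by 0.22 without shBMAL1 replicate 1 (adjusted p = 3.3e-04). IGFBP6 was thus the 1 tested binding protein that was lower in shBMAL1 than in shARNT.

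IGFBP7, a secreted protein of vessel walls and matrix, lies on chromosome 4 from 57896939 to 57976551. It had 18825, 19389 and 18654 counts in shControl and 18964, 20938 and 21854 in shBMAL1. The shARNT libraries had 15233, 15766 and 16239 counts. The shBMAL1 libraries overlapped the controls and the shARNT libraries lay below both groups. In shBMAL1 its log2 fold change was 0.07, with a 95% interval from -0.02 to 0.16 (adjusted p = 0.192). In shARNT against shControl it was -0.53 (SE 0.0451), and directly against shBMAL1 it was -0.60 (SE 0.0451, adjusted p = 1.77e-10).

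The IGFBP7 values were fractions of reads in all 9 libraries, the sole tested member of the family for which this was so. Its antisense gene IGFBP7-AS1, listed as LOC255130 and matched by that gene number, overlaps the start of IGFBP7 over 624 bases. This gene was chosen after its values were seen. The antisense row held between 7.31% and 8.04% as many reads as IGFBP7 in every library, and its log2 fold changes were -0.50 (SE 0.0645) in shARNT and 0.08 (SE 0.0635) in shBMAL1. The protein-coding gene POLR2B, also in the count table, overlaps the annotated span of IGFBP7 on the opposite strand as well. The use of strand in the counting is not given in the sources used here, so reads of these overlapping genes cannot be told apart.

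IGFBP1, IGFBP2 and IGFBP4 were at the limit of the depth. IGFBP1, a liver and decidua protein that is strongly induced by hypoxia, had 2 counts in shControl replicate 3 and 0 in the other 8 libraries, although it lies 18.6 kb from IGFBP3. A count of 0 allows up to 3 counts, or 0.0756 to 0.0911 CPM depending on the library. IGFBP2, which lies 7.67 kb from IGFBP5, had 7, 4 and 5 counts in shControl, 6, 2 and 17 in shBMAL1 and 1, 4 and 0 in shARNT. IGFBP4, an inhibitory binding protein, had 7, 8 and 5 counts in shControl, 0, 3 and 1 in shBMAL1 and 3, 0 and 0 in shARNT. In each of these neighbouring pairs 1 gene was therefore well above the other in shControl, and no fold change is given for the rare partner.

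**Figure D3:**
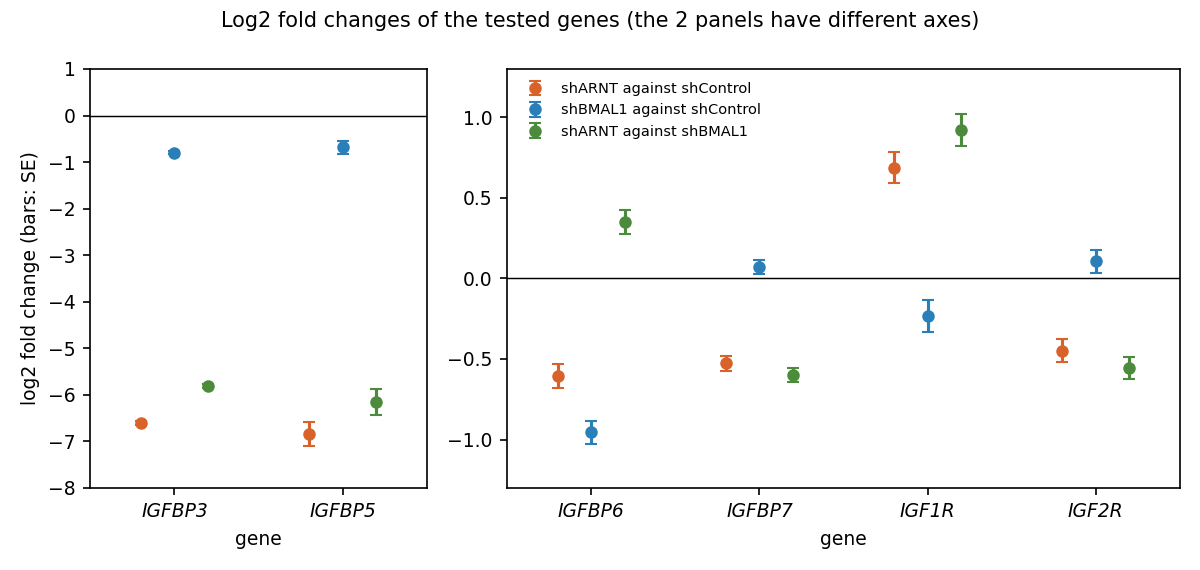
Log2 fold changes with SE for the 6 tested genes, for each depletion against shControl and for shARNT against shBMAL1; the panels have different vertical axes. IGFBP3 and IGFBP5 sit near -6.60 and -6.84 in shARNT but near -0.80 and -0.68 in shBMAL1, and IGF1R is the gene with a positive value in shARNT.

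The receptors moved differently from each other. IGF1R lies on chromosome 15 from 99191768 to 99507759. It had 270, 267 and 300 counts in shControl, 255, 248 and 233 in shBMAL1, and 512, 516 and 586 in shARNT, so that every shARNT library was above every other library. The level was 8.43 ± 0.561 CPM in shControl, 7.17 ± 0.305 CPM in shBMAL1 and 13.6 ± 1.03 CPM in shARNT (SD, n = 3). Against shControl, the log2 fold change in shARNT was 0.69 (SE 0.0953). The direct contrast gave 0.92 (SE 0.0966, adjusted p = 2.94e-08). In shBMAL1 IGF1R was called lower, at -0.23 (SE 0.101, adjusted p = 0.0541). That call was lost without shControl replicate 3 (-0.18, adjusted p = 0.187), without shBMAL1 replicate 3 (-0.20, adjusted p = 0.14) and under scaling by library size alone (-0.19, adjusted p = 0.121).

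IGF2R lies on chromosome 6 from 160390114 to 160534539. It had 15887, 13712 and 14834 counts in shControl, 16245, 15099 and 18107 in shBMAL1, and 11697, 12648 and 14631 in shARNT. In CPM the shARNT libraries lay below the others, at 295 to 369 CPM against 417 to 477 CPM in shControl, while shBMAL1 overlapped shControl. In shBMAL1 the log2 fold change was 0.11, with a 95% interval from -0.04 to 0.25 (adjusted p = 0.205), and it was called higher without shControl replicate 1 (0.15, adjusted p = 0.0962) or without shBMAL1 replicate 2 (0.17, adjusted p = 0.0595). Its value in shARNT against shControl was -0.45 (SE 0.0703), and directly against shBMAL1 it was -0.56 (SE 0.0703, adjusted p = 4.6e-07). Hence the ratio of the receptor transcripts shifted, with IGF1R at 161% and IGF2R at 73.3% of the control level in shARNT.

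The windows before the receptor starts are shown because they held more core matches, counted on both strands, than the other members' windows. As separate sites IGF2R held 3, as many as IGFBP3. The receptor transcripts moved in opposite directions in shARNT. The windows are chr15:99191518-99191767 for IGF1R and chr6:160389864-160390113 for IGF2R, both on the plus strand of GRCh37, with capitals as above.
IGF1R: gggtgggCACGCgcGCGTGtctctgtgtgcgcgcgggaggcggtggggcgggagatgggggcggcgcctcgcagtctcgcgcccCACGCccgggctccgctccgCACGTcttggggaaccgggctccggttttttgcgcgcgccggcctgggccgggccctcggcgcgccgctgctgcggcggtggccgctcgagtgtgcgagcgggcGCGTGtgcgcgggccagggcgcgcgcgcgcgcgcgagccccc
IGF2R: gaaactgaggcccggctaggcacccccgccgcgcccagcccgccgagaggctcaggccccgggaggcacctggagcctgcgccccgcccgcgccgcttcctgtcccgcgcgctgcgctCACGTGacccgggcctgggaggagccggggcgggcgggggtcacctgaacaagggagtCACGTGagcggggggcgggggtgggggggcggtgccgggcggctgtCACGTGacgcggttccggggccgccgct
The IGF1R window held 5 cores, a number that 1.36% of the 35116 windows reach. The IGF2R window held 3 CACGTG palindromes, each read as a core on both strands and so counted as 6 matches, which 0.646% of windows reach. CACGTG was present in 6.34% of all windows, ACGTG in 18.5% and GCGTG in 32.2%. Of the other members, IGFBP4 and IGFBP6 had no core and IGFBP2 had a core before 1 of its 3 starts. The share of G and C was 81.2% for IGF1R and 79.2% for IGF2R, beside 56.4% to 71.6% for IGFBP2, IGFBP4 and IGFBP6. Its part in the number of cores was not tested. A matching core is a description of the letters and was not tested as a binding site.

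Calls, at an adjusted p under 0.1, were common over all genes. In shARNT against shControl, where 81.8% of the genes tested were called, 40.5% higher and 41.3% lower, 1 of the 6 tested members had a value above 0 and 5 had values below 0, from which nothing is read because this contrast chose the family. The depletion of BMAL1 gave calls for 63.3% of genes, with 31.9% higher and 31.5% lower. Of the 6 tested members 4 were called, all of them lower. Without IGFBP3, which was chosen with the same control libraries, 3 of 5 were called, all lower. In shARNT against shBMAL1, 81.2% of genes were called, 40.1% higher and 41.1% lower, and the 5 tested members other than IGFBP3 were all called, 2 higher and 3 lower. The value of IGFBP3 is not counted there, since its shARNT level chose the family. The lower ones include IGFBP5, for which no test is given. In shBMAL1 against shControl the median log2 fold change of the 6 tested members, with IGFBP3 among them, was -0.46, beside -0.00146 over all genes. This is a description, because the control libraries took part in the choice of IGFBP3. No median is given for the comparisons with shARNT, whose libraries chose the family.

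Together, the 7 binding proteins summed to 3695 ± 58.0 CPM per kilobase in shControl, 2308 ± 93.9 in shBMAL1 and 429 ± 8.89 in shARNT (SD, n = 3). IGFBP3 made up 84.2% ± 0.504 of that sum in shControl and 77.7% ± 1.09 in shBMAL1. In shARNT it made up 7.45% ± 0.103, and IGFBP7 took first place with 64.9% ± 0.678, followed by IGFBP6 with 27.7% ± 0.571. Without IGFBP3 the sum was 584 ± 10.7, 516 ± 45.2 and 397 ± 8.65 CPM per kilobase, so that the loss outside IGFBP3 was far smaller. The share of IGFBP3 depends on the length used, and ran from 79.7% to 91.2% in shControl and from 5.61% to 13.5% in shARNT with the other lengths tried.

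**Figure D4:**
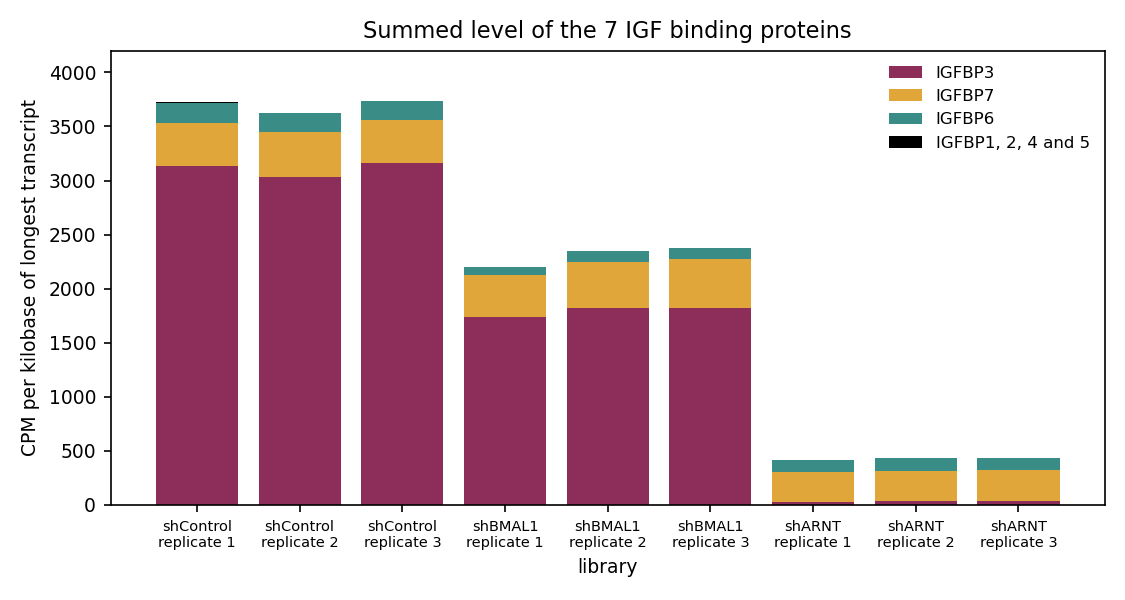
Stacked bars from 0 give the level of each binding protein in CPM per kilobase of longest transcript, with 1 bar per library. The bars fall from a mean of 3695 in shControl to 2308 in shBMAL1 and 429 in shARNT, and the IGFBP3 segment shrinks to 7.45% of the shARNT bars.

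Among 11223 other genes above the same minimum level, the profiles over the 9 libraries closest to that of IGFBP3 were those of AZGP1, CA9, PTPRN, SEMA5B and MMP28, at Euclidean distances of 1.22 to 1.71 on the centred log2 scale. CA9 encodes a carbonic anhydrase of the cell surface that is a classical HIF target. Each was lower in shARNT than in shControl by -5.30 to -6.60 on the log2 scale and lower in shBMAL1 by -0.36 to -1.49. With 3 groups of 3 libraries, such closeness describes the group means and little else.

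The other genes of the pathway, 48 in the table of which 38 were tested, showed no common direction. In shBMAL1 against shControl 16 were called higher and 12 lower, which is 73.7% of them beside 63.3% of all genes. In shARNT against shBMAL1 10 were called higher and 18 lower, or 73.7% beside 81.2%, and in shARNT against shControl 12 higher and 19 lower, or 81.6% beside 81.8%. Their medians were 0.07, -0.28 and -0.16 on the log2 scale. These counts and medians include INSRR, PAPPA2, WISP1 and WISP2, which passed the filter on low counts only through the group where each was highest.

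The ligands were not detected under their own names. IGF1, IGF2 and INS had 0 counts in all libraries, which allows up to 3 counts in each. A row for the readthrough gene INS-IGF2, which overlaps IGF2 and was chosen after its values were seen, had 48, 34 and 56 counts in shControl, 36, 46 and 31 in shBMAL1 and 8, 10 and 14 in shARNT. Its shARNT libraries lay below all others, by -2.02 on the log2 scale (SE 0.344) against shBMAL1, given with no test because the row passed the filter through the higher groups, and in shBMAL1 against shControl it was -0.34 (adjusted p = 0.325). Reads of IGF2 and of the readthrough gene cannot be told apart in a table of this kind.

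Of the related receptors, all 5 were tested. INSR, the insulin receptor, which can pair with IGF1R, had 738, 724 and 684 counts in shControl, 518, 651 and 546 in shBMAL1 and 606, 602 and 588 in shARNT. It fell in shBMAL1 (-0.37, SE 0.0813, adjusted p = 5.76e-04), and the depletions differed by -0.14, with a 95% interval from -0.32 to 0.03 (adjusted p = 0.116). Against shControl, its log2 fold change in shARNT was -0.52 (SE 0.0810), with the opposite sign to IGF1R. INSRR, a receptor of the same family, had 17, 25 and 20 counts in shControl, 8, 11 and 3 in shBMAL1 and 4, 10 and 3 in shARNT. It passed the filter on low counts through shControl, where it was highest, so no test is given for it.

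M6PR, the small mannose 6-phosphate receptor that shares lysosomal cargo with IGF2R, had 2857, 2800 and 2862 counts in shControl, 2983, 2802 and 2772 in shBMAL1 and 6776, 6199 and 6707 in shARNT. It was higher in shARNT than in shBMAL1 by 0.99 (SE 0.0456, adjusted p = 5.54e-14), the opposite sign to IGF2R, and its change in shBMAL1 was -0.04 (95% interval -0.14 to 0.05, adjusted p = 0.458). LRP1 and TMEM219 have both been described as cell surface receptors for IGFBP3. LRP1 fell in shBMAL1 by 0.66 (SE 0.1004, adjusted p = 1.23e-05) and was lower still in shARNT, by -1.11 against shBMAL1 (SE 0.101, adjusted p = 3.58e-09). TMEM219 rose in shBMAL1 by 0.85 (SE 0.0488, adjusted p = 1.08e-11) and was lower in shARNT than in shBMAL1 by -1.35 (SE 0.0495, adjusted p = 1.32e-15).

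Among the genes of IGFBP carriage and proteolysis, 3 of 5 tested (60%) were called in each comparison, no larger a share than the 63.3%, 81.8% and 81.2% over all genes. PAPPA2 was among the 3 each time, although it passed the filter only through shBMAL1, where it had 34, 14 and 12 counts. STC1, a stanniocalcin that inhibits the IGFBP protease PAPPA, had 2258, 2210 and 2396 counts in shControl, 1978, 1982 and 2232 in shBMAL1 and 85, 97 and 115 in shARNT. It was lower in shARNT than in shBMAL1 by -4.59 (SE 0.0904, adjusted p = 6.15e-20) and fell slightly in shBMAL1 (-0.20, SE 0.0636, adjusted p = 0.0121). ADAM12, a protease that cleaves IGFBP3 and IGFBP5, had 2157, 2011 and 2202 counts in shControl, 4520, 4402 and 4968 in shBMAL1 and 694, 628 and 673 in shARNT. It rose in shBMAL1 by 1.08 (SE 0.0555, adjusted p = 2.1e-12) and differed between the depletions by -3.01 (SE 0.0618, adjusted p = 1.16e-19).

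Of 13 proteins with an IGFBP-like domain, 8 were tested. In shBMAL1 3 rose and 3 fell, and in shARNT against shBMAL1 4 were higher and 3 lower, shares of 75% and 87.5% called beside 63.3% and 81.2% over all genes. The counts include WISP1 and WISP2, which passed the filter only through the group where each was highest. HTRA1, a secreted serine protease, rose in shBMAL1 by 0.54 (SE 0.0457, adjusted p = 3.96e-09) and was lower in shARNT than in shBMAL1 by -3.33 (SE 0.0527, adjusted p = 2.12e-21). NOV, the matricellular protein CCN3, rose in shBMAL1 by 2.00 (SE 0.0776, adjusted p = 2.71e-14).

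Of 18 receptor adaptors and kinases, 17 were tested, and 9 rose and 4 fell in shBMAL1, a share of 76.5% called beside 63.3% over all genes. IRS2, a docking protein of IGF1R and INSR, had a log2 fold change of 0.01 in shBMAL1 (95% interval -0.12 to 0.14, adjusted p = 0.901) and was lower in shARNT than in shBMAL1 by -2.01 (SE 0.0668, adjusted p = 2.8e-16). Of the 3 IGF2 mRNA-binding proteins, IGF2BP3 rose in shBMAL1 by 1.07 (SE 0.0624, adjusted p = 1.4e-11) and IGF2BP2 fell by 0.42 (SE 0.0680, adjusted p = 2.52e-05). IGF2BP1 was not called (adjusted p = 0.982).

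**Figure D5:**
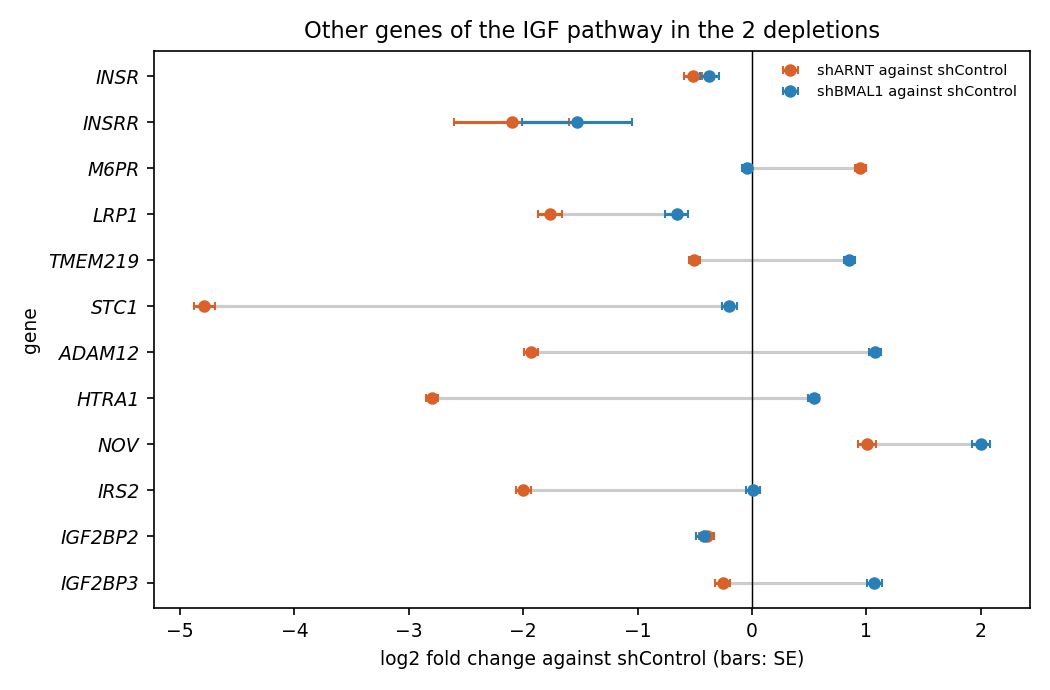
Log2 fold changes against shControl with SE for the named pathway genes, with shARNT in orange, shBMAL1 in blue and a grey line between them; both use the same control libraries. STC1 and IRS2 lie far to the left in shARNT and close to 0 in shBMAL1 (-0.20 and 0.01), while HTRA1, ADAM12, TMEM219 and IGF2BP3 lie on opposite sides of 0.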

How the data were processed

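RNA from A498 cells was sequenced as stranded mRNA libraries, read as paired ends on a BGISEQ-500 instrument. According to the study's methods, the authors aligned reads to GRCh37 with SeqMan NGen 17 and exported counts per gene with ArrayStar 17; the submitters' processing notes name STAR, DESeq2 and hg38 instead. Annotation release, strand and treatment of reads with several alignments are not given in the sources used here. The deposited values are expected counts without normalization, per the file headers total reads on a linear scale. A value of 0.05 stood for no reads and was set to 0, 720 to 787 values per library were fractions, and all were rounded. Rows sharing 1 of 43 names were summed, 28 rows named by a date were kept apart, and no row lacked a name.

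Testing used edgeR 4.0.16 (R 4.3.3) with TMM scaling, filterByExpr and quasi-likelihood F-tests on all 9 libraries without a block, and 15551 genes were tested. The threshold for a call was that of the study, an adjusted p (Benjamini-Hochberg) under 0.1. SE is the absolute log2 fold change divided by the square root of F. The computation was tested on simulated data. Alternatives were DESeq2 1.42.0, median-ratio scaling, library size alone, no filter, the 6 libraries compared, a replicate block, halved counts, and each library left out. Labels call the replicates biological without naming cultures, so p-values measure the spread between these libraries, which may be technical.

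Positions and lengths came from GENCODE 44 lifted to GRCh37, and promoter windows from RefSeq (GRCh38.p14), which held 7 of the 9 members; IGFBP1 and IGFBP7 had none. The members and lists were chosen with earlier results of these data known. Named genes were all members, every ligand and related receptor, and in each other group of the pathway the called gene with the largest change in each comparison at an average log2 CPM of at least 2. The genes most like IGFBP3 were the 5 with the smallest Euclidean distance. Genes outside this rule are marked, and 1 gene that it names is not reported here.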

Additional observations from a re-analysis of the deposited data

Results flagged for a closer look

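For the genes given here, depletion of ARNT and depletion of BMAL1 had different effects, as tested by edgeR in shARNT against shBMAL1. Values are log2 differences, shARNT minus shBMAL1. Over all genes 81.2% were called in this contrast, so a call by itself does not set a gene apart. IGFBP3 is left out because its shARNT level chose the family. The value of IGFBP5 is a description with no test, because it passed the filter on low counts through the higher groups.

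Among the binding proteins the difference was -6.16 for IGFBP5, 0.35 for IGFBP6 and -0.60 for IGFBP7. Among the receptors it was 0.92 for IGF1R and -0.56 for IGF2R. IGFBP6 and IGF1R were the members with a positive value. Of the related receptors, M6PR had 0.99, LRP1 -1.11 and TMEM219 -1.35. In the groups of carriage and proteolysis and of IGFBP-like domains, STC1 had -4.59, ADAM12 -3.01, HTRA1 -3.33 and NOV -0.998. In the signalling and mRNA-binding groups, IRS2 had -2.01 and IGF2BP3 -1.33. No cause of these differences was tested. No group of 4 or more samples was present, so single libraries were not screened for outliers.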

How the results depend on the processing

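Over 16 alternatives, no log2 fold change of a tested member or other named gene reversed its sign with a call, and 15 of 18 member values and 42 of 45 values of other genes stayed on their side of the threshold throughout. The exceptions among members lay in shBMAL1 against shControl: IGF1R, IGF2R (also called without a filter, 0.11, adjusted p = 0.0515) and IGFBP7. Library size alone called IGFBP7 (0.12, adjusted p = 0.0261) and IGF2R (0.15, adjusted p = 0.0635) higher, and IGFBP7 was also called without shBMAL1 replicate 1 (0.13, adjusted p = 0.0131). That scaling moved the median of all genes by 0.24, 0.05 and 0.19 for shARNT and shBMAL1, each against shControl, and for the direct contrast, and genes called higher then made up 60.5%, 55.9% and 58.6% of calls in place of 49.6%, 50.3% and 49.4%. Under it the values in shARNT against shControl were -0.37 for IGFBP6, -0.29 for IGFBP7 and -0.21 for IGF2R, and in the direct contrast 0.54 for IGFBP6 and -0.37 for IGF2R, each moved by over 1.5 times. INSR, TMEM219 and IGF2BP2 moved as far in shARNT against shControl, to -0.28, -0.27 and -0.16. Other exceptions were INSR in the direct contrast, called without shBMAL1 replicate 1 (-0.21, adjusted p = 0.0334) or replicate 3 (-0.18, adjusted p = 0.0925), and under library size alone IGF2BP2 in the direct contrast (0.21, adjusted p = 0.00814) and IGF2BP3 in shARNT against shControl (-0.02). The cause was not tested. In shBMAL1 against shControl, 3 to 6 members were called over the alternatives, IGFBP3 among them each time. The main setting called 4 members and 9851 of all genes. The 6 were called without a filter, which called 10030 of all genes. No such count is given for the comparisons with shARNT, whose libraries chose the family. The share of IGFBP3 in the summed binding proteins was 79.7%, 72.4% and 5.61% in shControl, shBMAL1 and shARNT with the union of exons as length, and 91.2%, 86.8% and 13.5% without length. With the replicate number as a block, 4 members were called in shBMAL1 against shControl, as without it, beside 9832 and 9851 of all genes. No member's call changed in that comparison. Across genes, deviations of same-numbered libraries correlated at r of -0.217 to 0.356, and 3 of 9 libraries correlated best with their own number. Pairs with different numbers ran from -0.273 to 0.407. With 3 libraries per group this check cannot exclude that the numbers pair them. Depth limits IGFBP1, IGFBP2 and IGFBP4 in all groups and IGFBP5 in shARNT.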

Other observations

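The genomic surroundings of IGFBP3 and IGFBP5 were listed after their values were seen. Within 1 Mb of either gene, 6 other genes were tested. Around IGFBP3 their log2 fold changes in shARNT against shControl ran from -2.38 for MYO1G to 0.78 for TBRG4, and the closest, TBRG4, lay 800.2 kb away. Around IGFBP5 they ran from -1.32 for RPL37A, a ribosomal protein gene 92.9 kb away, to 1.25 for XRCC5, a DNA repair gene. In each neighbourhood, values on both sides of 0 were present, and none was near those of IGFBP3 or IGFBP5.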
